A study of Homo sapiens with 6 samples.

Results

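Translation initiation factors are described here as 48 protein-coding genes, out of 27134 genes in the deposited table. They were chosen by symbol, EIF followed by a digit, leaving out the EIF2AK kinases and 1 Y-linked copy, and by a mean of at least 20 normalised counts over the 6 libraries. That mean chose the members and is given only as a description. Of 51 such symbols, 3 lay under it: EIF2S3B averaged 14.6, EIF4EBP3 3.56 and EIF4E1B 3.15, while the lowest members were EIF4A1 at 88.8 and EIF5AL1 at 160.4. The RNA came from KM12, an established line of human colorectal cancer cells kept at passages 10 to 15. The 3 CDO1 libraries came from cells overexpressing CDO1, cysteine dioxygenase type 1, and the 3 mock libraries from the control cells. The labels give neither the vector of either group nor whether the 3 libraries of a group are separate cultures or 1 clone, so p-values cover the spread among these libraries alone, and that spread may be technical. A normalised count is the reads assigned to a gene divided by the library's size factor.

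Initiation brings a ribosome with its initiator tRNA to the start codon. EIF2 carries the tRNA as a complex with GTP and is recharged by its exchange factor EIF2B, the step that stress kinases shut by phosphorylating EIF2. EIF3 holds the small subunit together with EIF1 and EIF1A, EIF4F (the cap-binding EIF4E, the scaffold EIF4G and the helicase EIF4A) loads the mRNA, EIF5 and EIF5B complete start codon recognition and subunit joining, and EIF6 keeps the large subunit apart until then. In colorectal and other cancers this machinery is known in part through mTORC1, which frees EIF4E from its binding proteins.

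In CDO1 cells 16 of the 48 factor genes rose, 3 fell and 29 did not pass, with every log2 fold change below 0.5 in size. The rises ran from a log2 fold change of 0.14 to 0.48 and included 3 of 5 EIF2B subunits, the EIF3 subunit EIF3J, the scaffolds EIF4G1 and EIF4G2, the helicase EIF4A2, and the EIF4E-binding proteins EIF4EBP1 and EIF4EBP2. The falls were of EIF1AD, EIF4ENIF1 and EIF5A2, between -0.26 and -0.21. DESeq2 and the authors' deposited comparison each gave 17 factor genes higher and 3 lower, but the 3 lower were EIF1AD, EIF3D and EIF4B. Neither called EIF4ENIF1 or EIF5A2. Over all genes DESeq2 called 2068 higher and 2228 lower. The authors' deposited comparison also had more of all genes lower than higher. The test was limma on log2 of the normalised count plus 1 over 21775 genes, with a call at an adjusted p under 0.05, so a fold change is on that scale. Over all genes tested 24% were called, 11.3% higher and 12.7% lower. Among the 12250 protein-coding genes with the same minimum mean 36.9% were called, 18.1% higher and 18.8% lower. The factor genes' share called, 39.6%, lies near that of these protein-coding genes, a background added after the values were seen. Of the factor genes 33.3% rose and 6.25% fell. The median log2 fold change was 0.09 over the factor genes and -0.003 over all genes tested.

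The balance of directions depended on the scaling and on how the trend with GC content was removed. With that trend removed per library by a robust lowess curve, 19 factor genes were higher and 10 lower, and 29.7% of all genes were called (15.6% higher, 14.1% lower). With the same curve fitted without robustness iterations, 26 were higher and 4 lower, and 31.6% of all genes were called (20.4% higher, 11.3% lower). The 10 genes called higher there and not in limma were EIF1AX, EIF2A, EIF2B5, EIF3K, EIF3M, EIF4E2, EIF4G3, EIF4H, EIF5A and EIF6. That version came first and moved the median of all genes to 0.06, and the robust one, with a median of 0.008, was taken in its place after both results were seen. With every library scaled to the same total the factor genes split into 13 higher and 8 lower, and all genes into 9.48% higher and 14.1% lower (23.6% called).

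Other settings are given with their backgrounds of genes higher and lower. A minimum mean of 10 gave 18 factor genes higher and 5 lower (17.4% and 18.3% of all genes, 35.8% called). Leaving out factor genes marked as having a copy or readthrough gave 11 and 3 in the same limma fit (11.3% and 12.7%, 24% called). edgeR gave 18 and 6 with either normalisation (TMM 17.3% and 18.4%, 35.7% called, and RLE 16.8% and 18.8%, 35.6% called). A replicate block gave 20 and 7 (13.1% and 14.1%, 27.2% called), and an adjusted p under 0.01 gave 9 and 0 (7.09% and 8.77%, 15.9% called). By limma 0 lower calls at that threshold compares with 9 factor genes lower at an unadjusted p under 0.05 and 6 by edgeR at 0.05. Leaving out CDO1 replicate 1 gave 7 and 2 (8.17% and 10.2%, 18.4% called), CDO1 replicate 2 gave 16 and 1 (9.59% and 11.3%, 20.9% called), and CDO1 replicate 3 gave 10 and 1 (7.98% and 10.4%, 18.3% called). Leaving out mock replicate 1 gave 11 and 0 (8.49% and 9.91%, 18.4% called), mock replicate 2 gave 13 and 5 (11.1% and 11.6%, 22.7% called), and mock replicate 3 gave 19 and 3 (12% and 13.3%, 25.3% called). In each of these settings more factor genes were called higher than lower.

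**Figure D1:**
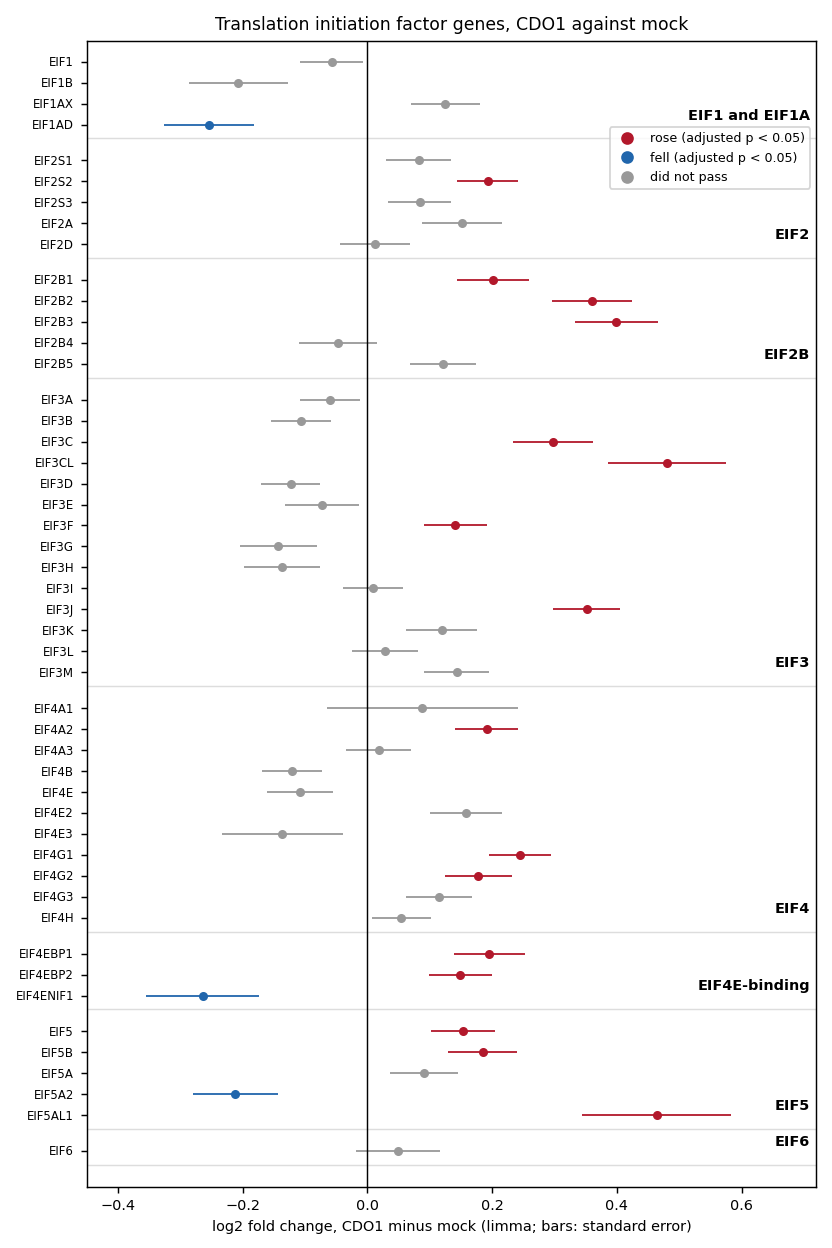
Log2 fold change (CDO1 minus mock, limma) of each of the 48 factor genes, arranged by complex, with bars for the standard error; red points rose, blue points fell and grey points did not pass an adjusted p of 0.05. All values lie between -0.26 and 0.48, with 16 red and 3 blue points.

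Groups did not overlap in 34 of the 48 genes (70.8%), with all CDO1 libraries above all mock libraries in 24 and below them in 10. The background was 37.1% of all genes tested and 50.3% of protein-coding genes with the same minimum mean. The median deviation of the factor genes from their mock mean was 0.09, 0.09 and 0.12 on the log2 scale in the CDO1 libraries, against 0.003, -0.04 and 0.04 in the mock libraries. The background of genes with all CDO1 libraries above mock was 18.3%, and below it 18.9%. Among protein-coding genes with the same minimum mean these shares were 25.8% and 24.5%, and among the factor genes 50% and 20.8%.

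**Figure D2:**
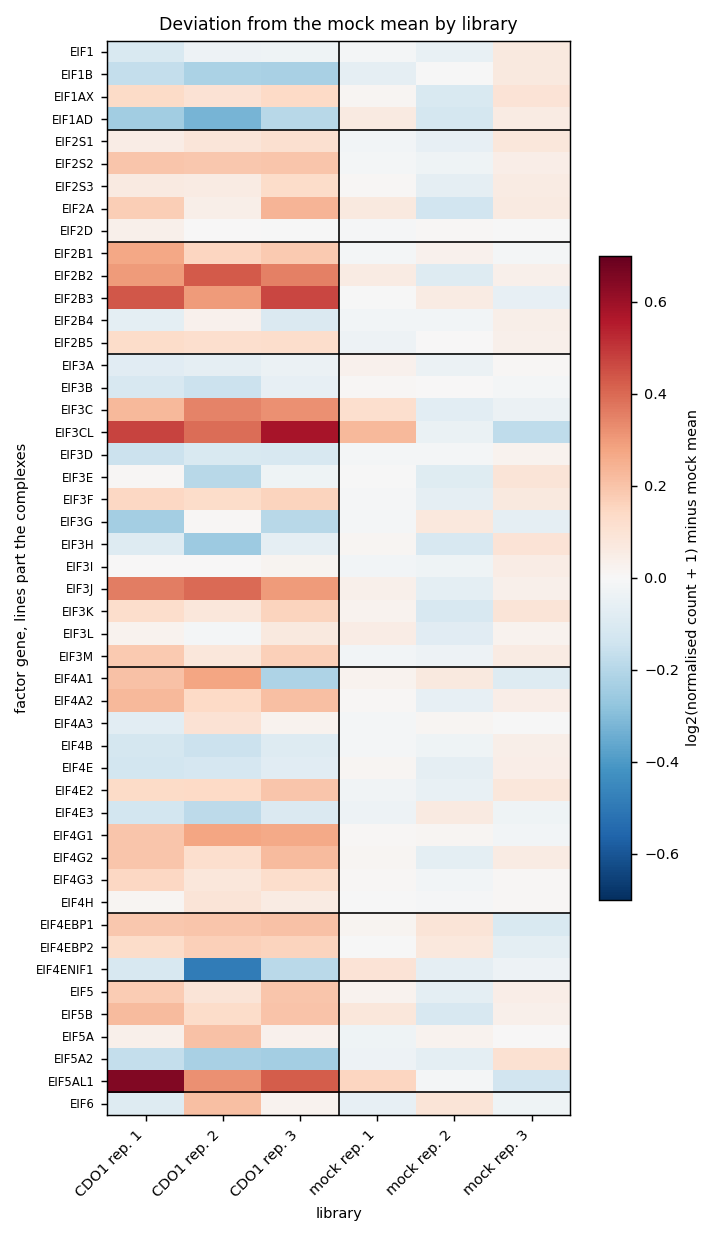
Deviation of each factor gene (rows, lines part the complexes) from its mock mean on the scale of log2 of the normalised count plus 1, by library (columns), from blue for lower to red for higher. EIF2B2, EIF2B3, EIF3C, EIF3CL, EIF3J, EIF4G1 and EIF5AL1 are red in all 3 CDO1 libraries, and EIF1AD, EIF1B, EIF4ENIF1 and EIF5A2 are blue in all 3. Other genes are also red in all 3, such as EIF2S2 and EIF4EBP1, or blue in all 3, such as EIF3D and EIF4B.

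The libraries held 17516640 to 22198173 reads assigned to genes. CDO1 itself stood at 2484, 2336 and 2333 normalised counts in the CDO1 libraries, against 68.1, 0 and 0 in the mock libraries. Its log2 fold change was 9.18 by limma (adjusted p = 2.74e-07), 6.57 by edgeR (adjusted p = 6.85e-10) and 6.71 by DESeq2 (adjusted p = 0.0241). The authors' deposited table gives CDO1 a log2 fold change of 0.09 and an adjusted p of 0.416. Of 9 colorectal epithelial markers 8 had a mean of at least 20, and their summed level was 193829 to 207591 normalised counts in CDO1 libraries and 144464 to 153005 in mock libraries. The summed level of 6 fibroblast markers, of which 4 were at 0 or not in the table, was 130.4 to 151 in CDO1 libraries and 204 to 293 in mock libraries. Of 5 leukocyte markers 2 were at 0 or not in the table, with sums of 6.43 to 14.2 in CDO1 libraries and 6.83 to 17.9 in mock libraries. The 4 endothelial markers summed to 51.3 to 77.7 in CDO1 libraries and 27.3 to 82.4 in mock libraries. The part of these differences in the results on factor genes was not tested. Spearman's rho between gene GC content and log2 fold change was -0.232 over the 10926 genes averaging 100 or more. Over the 48 factor genes, which share the 6 libraries, that rho was -0.00706. Over the 10926 genes, rho between GC content and the deviation of a single library was -0.336, 0.0028 and -0.275 in the CDO1 libraries. In the mock libraries it was 0.204, 0.523 and -0.237, so the trend also differed within each group.

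Among the 16 genes that rose, 7 were called under each of the 20 alternative settings that were run: EIF2B2, EIF2B3, EIF2S2, EIF3C, EIF3CL, EIF3J and EIF4G1. These settings include an adjusted p under 0.01 in the same limma fit, which only 9 of the 16 passed. How many of all genes were called under every setting was not computed. The upstream sequence of EIF2B2, EIF2B3, EIF3J and EIF4G1 is shown, since they are among the 7. They were picked after their values were seen, leaving out EIF2S2, EIF3C and EIF3CL, whose transcripts share sequence with copies. EIF2B2 shares 27.5% of its 50-base stretches with other genes, mainly the locus AL049780.3. Such sharing reached 20% in 5 of the 16 genes that rose, 0 of the 3 that fell and 6 of the 29 that did not pass. Each stretch is the part of the 250 bases before the RefSeq start (GRCh38.p14) that holds no exon in GENCODE release 29, given 5′ to 3′ on the gene's strand. Capitals mark an E-box (CACGTG, its own reverse complement, bound by MYC and related factors) or a CCAAT box (CCAAT, or ATTGG on the other strand).
EIF2B2 (chr14:75002671-75002910, plus strand): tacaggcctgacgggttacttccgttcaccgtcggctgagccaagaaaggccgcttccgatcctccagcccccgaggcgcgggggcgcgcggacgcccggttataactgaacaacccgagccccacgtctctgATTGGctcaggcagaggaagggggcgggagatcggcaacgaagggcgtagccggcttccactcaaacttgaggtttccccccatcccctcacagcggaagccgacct
EIF2B3 (chr1:44986723-44986845, minus strand): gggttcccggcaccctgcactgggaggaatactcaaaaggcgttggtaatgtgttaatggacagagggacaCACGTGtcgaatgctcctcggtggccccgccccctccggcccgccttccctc
EIF3J (chr15:44536924-44537056, plus strand): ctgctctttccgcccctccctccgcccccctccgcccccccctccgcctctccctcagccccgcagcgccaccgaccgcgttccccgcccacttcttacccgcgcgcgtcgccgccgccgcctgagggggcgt
EIF4G1 (chr3:184314356-184314494, plus strand): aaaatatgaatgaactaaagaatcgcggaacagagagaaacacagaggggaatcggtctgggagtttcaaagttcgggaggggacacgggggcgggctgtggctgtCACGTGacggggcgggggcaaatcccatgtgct

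The stretches of EIF2B3 and EIF4G1 hold 1 E-box each, that of EIF2B2 holds 1 CCAAT box on the other strand, and that of EIF3J holds neither. In all 6 motifs were searched on both strands, and the 2 marked were kept after the counts were seen. For the factor genes, 40 of 48 matched the promoter table, with 55 windows of 250 bases before a start. An E-box was in 18.2% of these windows, against 6.34% of all 35116 windows, and a CCAAT box in 36.4% against 32%. The other 4 were CCGGAAGT (ETS factors) in 12.7% of factor windows against 3.42% of all, the NRF1 motif in 16.4% against 5.07%, the YY1 motif in 1.82% against 0.248%, and GGGGCGGGG (SP factors) in 23.6% against 15.1%. Of the 10 factor genes with an E-box 3 rose, as did 6 of the 18 with a CCAAT box. Over all 48 factor genes 16 rose (33.3%). For the other motifs it was 0 of 6 (ETS), 2 of 9 (NRF1), 1 of 1 (YY1) and 4 of 13 (SP). The windows of all genes were not matched on GC content or expression, so these shares are no test. A match describes letters in a window and not a bound site.

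EIF2B, the exchange factor of EIF2, had 3 of its 5 subunit genes higher in CDO1 cells. EIF2B3 (ENSG00000070785, GRCh38 chromosome 1, 44850522 to 44986722), the gamma subunit that pairs with the catalytic epsilon subunit, had 928, 843 and 948 normalised counts in the CDO1 libraries, against 685, 715 and 659.5 in the mock libraries. Its groups lay apart, with a mean 32.0% higher and a log2 fold change of 0.40 ± 0.07 (SE) (limma, adjusted p = 0.00014). EIF2B2 (ENSG00000119718, GRCh38 chromosome 14, 75002911 to 75012366), the regulatory beta subunit, had 1077, 1180.2 and 1121 normalised counts in the CDO1 libraries, against 911, 824 and 897 in the mock libraries. Every CDO1 library was above every mock library, with means of 1126 ± 51.9 in CDO1 cells and 877 ± 46.5 in mock cells (SD, n = 3 each) and a log2 fold change of 0.36 ± 0.06 (SE) (limma, adjusted p = 0.000237). EIF2B1, the regulatory alpha subunit, had 1519, 1399 and 1427 normalised counts in the CDO1 libraries, against 1245, 1284 and 1247 in the mock libraries. It was 15.1% higher (log2 fold change 0.20 ± 0.06 (SE), limma adjusted p = 0.013), a call that was lost without CDO1 replicate 1 or without mock replicate 1. EIF2B1 shares 20.1% of its 50-base stretches with DDX55.

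The other EIF2B subunits did not pass. EIF2B5, the catalytic epsilon subunit, had 1869, 1856 and 1863 normalised counts in the CDO1 libraries, against 1669, 1713 and 1756 in the mock libraries, groups that did not overlap, and a log2 fold change of 0.12 ± 0.05 (SE) (limma, adjusted p = 0.108). With the GC trend removed without robustness iterations EIF2B5 was called higher, at 0.15 (adjusted p = 0.0161). EIF2B4, the delta subunit, averaged 876 ± 42.3 in CDO1 cells and 905 ± 22.5 in mock cells (SD, n = 3 each), with overlapping groups and a log2 fold change of -0.05 ± 0.06 (SE). Subunits of 1 complex thus ran from -0.05 to 0.40, and the difference between subunits was not tested.

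**Figure D3:**
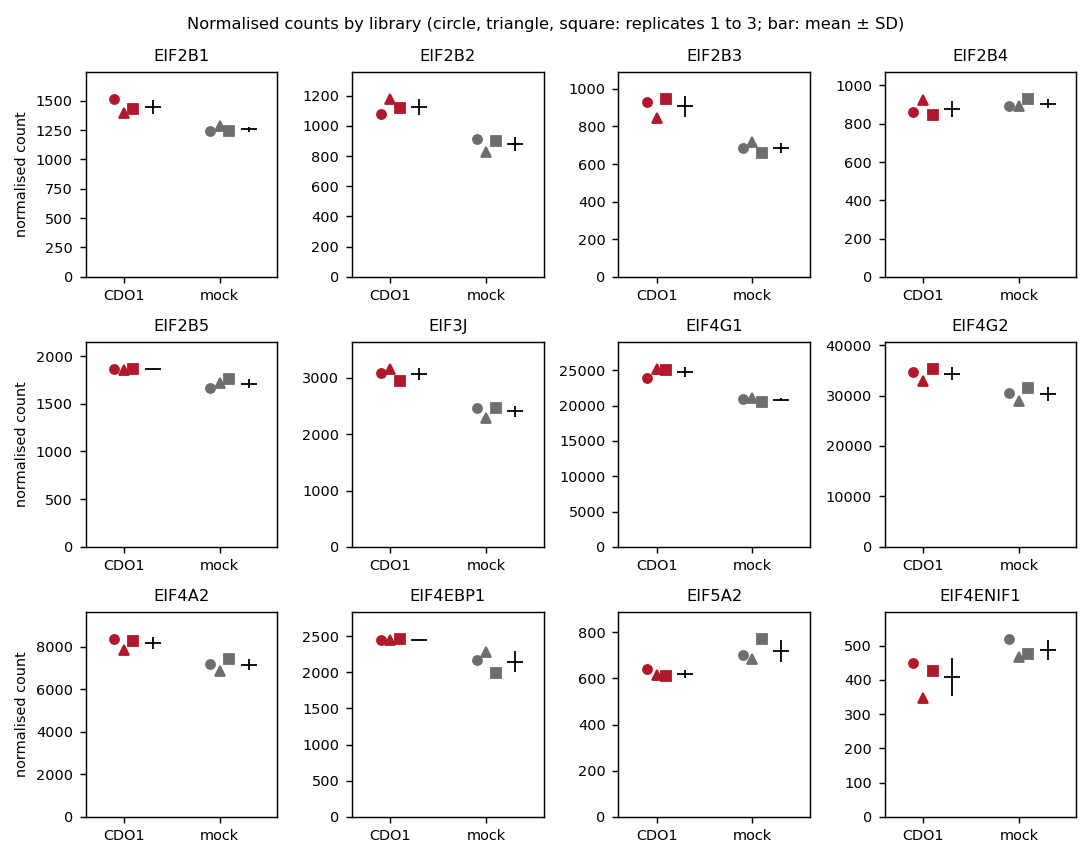
Normalised counts, on axes from 0, of 12 factor genes by group (red CDO1, grey mock), with a symbol for each replicate and a bar for the mean ± SD. The groups lie apart in EIF2B1, EIF2B2, EIF2B3, EIF2B5, EIF3J, EIF4G1, EIF4G2, EIF4A2, EIF4EBP1, EIF5A2 and EIF4ENIF1 and overlap in EIF2B4.

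EIF2, the carrier of the initiator tRNA, had 1 of 5 genes higher, its beta subunit EIF2S2. EIF2S2 had 4369, 4358 and 4378 normalised counts in the CDO1 libraries, against 3781, 3738 and 3949 in the mock libraries. The 3 CDO1 libraries differed by less than 20 counts and all lay above mock, with a log2 fold change of 0.19 ± 0.05 (SE) (limma, adjusted p = 0.006). The alpha subunit EIF2S1, the target of the stress kinases, averaged 3896 ± 76.7 in CDO1 cells and 3682 ± 183 in mock cells (SD, n = 3 each), a log2 fold change of 0.08 ± 0.05 (SE) with overlapping groups. The gamma subunit EIF2S3, which binds GTP and the tRNA, had 5943, 5913 and 6211 normalised counts in the CDO1 libraries, against 5709.6, 5435 and 5903 in the mock libraries, barely apart, with a log2 fold change of 0.08 ± 0.05 (SE) (limma, adjusted p = 0.26). EIF2A and EIF2D, which can bring tRNA to the ribosome by other routes, had log2 fold changes of 0.15 (limma, adjusted p = 0.0948) and 0.01 and overlapped between groups. The values for EIF2S2 and EIF2S3 may include reads of copies, since 22.6% and 23.2% of the 50-base stretches of their principal transcripts occur in transcripts of other genes, mostly EIF2S2P4 and EIF2S3B.

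EIF3 had 4 of 14 genes higher and none lower, and 10 did not pass. EIF3J (ENSG00000104131, GRCh38 chromosome 15, 44537057 to 44563029), a loosely bound subunit that acts in the mRNA channel of the small subunit, had 3082, 3165 and 2953 normalised counts in the CDO1 libraries, against 2465, 2287 and 2458 in the mock libraries. It was 27.6% higher with no overlap, at a log2 fold change of 0.35 ± 0.05 (SE) (limma, adjusted p = 4.66e-05), the smallest p of the 48 genes. EIF3F, of the ring of scaffold subunits, had 5203, 5141 and 5238 normalised counts in the CDO1 libraries, against 4692, 4507 and 4941 in the mock libraries. Its log2 fold change of 0.14 ± 0.05 (SE) passed narrowly (limma, adjusted p = 0.0478) and the call was lost without any 1 of CDO1 replicates 1, 2 and 3 and mock replicates 1 and 2, and with equal library totals. EIF3M, beside it in the ring, had 3903, 3633 and 3870.2 normalised counts in the CDO1 libraries, against 3398, 3354 and 3576 in the mock libraries, also apart, at a log2 fold change of 0.14 ± 0.05 (SE) (limma, adjusted p = 0.0517), and was called by edgeR (adjusted p = 0.0389) and DESeq2 (adjusted p = 0.0381).

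EIF3C, a core scaffold subunit, and its near-identical copy EIF3CL were both called higher. EIF3C had 1294, 1409 and 1383 normalised counts in the CDO1 libraries, against 1200.0, 1050.4 and 1077 in the mock libraries (log2 fold change 0.30 ± 0.06 (SE), limma adjusted p = 0.00153). EIF3CL had 465, 439 and 501 normalised counts in the CDO1 libraries, against 392, 324 and 296 in the mock libraries (log2 fold change 0.48 ± 0.09 (SE), limma adjusted p = 0.000719). Of the 50-base stretches of their principal transcripts 96.8% and 98.7% occur in the other's transcripts, so their reads cannot be told apart with certainty and the counts may be split between them.

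On the other side, 6 EIF3 genes had a log2 fold change below 0, and none of them passed. EIF3D, which can bind the cap of some mRNAs, had 5449, 5599.9 and 5585 normalised counts in the CDO1 libraries, against 5988, 5985 and 6137 in the mock libraries. All CDO1 libraries were below mock, at a log2 fold change of -0.12 ± 0.05 (SE) (limma, adjusted p = 0.0685). EIF3D was called lower by edgeR (adjusted p = 0.0483), by DESeq2 (adjusted p = 0.0372) and in the authors' deposited comparison (adjusted p = 0.0393). EIF3A and EIF3B were also below mock in every CDO1 library, at -0.06 and -0.11, and EIF3E, EIF3G and EIF3H overlapped between groups, at -0.07, -0.14 and -0.14. EIF3H had 5079, 4541 and 5177 normalised counts in the CDO1 libraries, against 5466, 5014 and 5799 in the mock libraries, and with the GC trend removed by the robust curve its log2 fold change was -0.17 (adjusted p = 0.00214). In that setting EIF3A, EIF3D and EIF3E were also called lower. Without robustness iterations none of these 4 was called, with EIF3H at -0.12 (adjusted p = 0.0532), EIF3A at -0.04 (adjusted p = 0.519), EIF3D at -0.06 (adjusted p = 0.301) and EIF3E at -0.05 (adjusted p = 0.496), and EIF3B was called lower with equal library totals. EIF3I, EIF3K and EIF3L had log2 fold changes of 0.01, 0.12 and 0.03, with overlapping groups. EIF3L shares 42.0% of its 50-base stretches with other genes, mainly the locus AL022311.1.

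Levels of different subunits were set on 1 scale by dividing by exon length and scaling each library to the same total, the scale known as TPM. On this scale EIF3I led the EIF3 genes at 702 ± 4.91 in CDO1 cells and 708 ± 23.5 in mock cells (SD, n = 3 each), followed by EIF3A at 416 ± 4.77 in CDO1 cells and 440.4 ± 12.0 in mock cells. EIF3E and EIF3D came next. EIF3E stood at 296 ± 22.9 in CDO1 cells and 315 ± 20.02 in mock cells. EIF3D stood at 263 ± 2.72 in CDO1 cells and 290.4 ± 4.80 in mock cells. Within every library EIF3E was above EIF3D. Between libraries their ranges only just overlapped in mock cells (EIF3D up to 295.9, EIF3E down to 295.8) and did not in CDO1 cells. EIF3G, EIF3K, EIF3B and EIF3J lay between 185 and 214 in CDO1 cells and between 147 and 224 in mock cells. EIF3H and EIF3L stood at 148 ± 10.7 in CDO1 cells and 165 ± 12.4 in mock cells and at 146 ± 4.28 in CDO1 cells and 145 ± 7.16 in mock cells. EIF3F and EIF3M stood lower, at 106 ± 1.30 in CDO1 cells and 97.8 ± 4.78 in mock cells and at 98.8 ± 4.21 in CDO1 cells and 90.7 ± 3.31 in mock cells. EIF3C and EIF3CL were lowest, at 37.6 ± 1.49 in CDO1 cells and 31.1 ± 2.27 in mock cells and at 29.2 ± 1.95 in CDO1 cells and 21.4 ± 3.11 in mock cells, with the shared reads noted above. Exon length is the union over all transcripts of a gene, which sets a low level for genes with long rare transcripts.

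**Figure D4:**
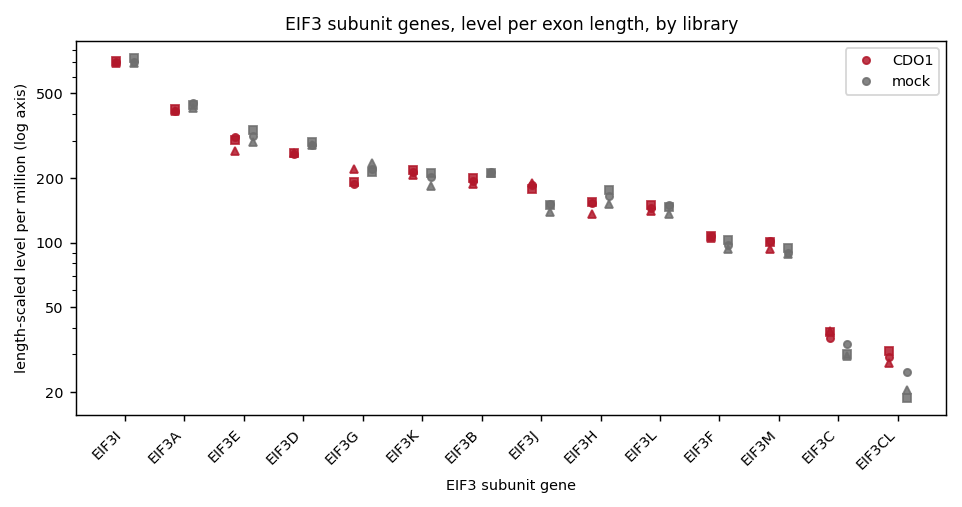
Length-scaled level (log axis, TPM scale) of the 14 EIF3 genes, ordered by their mean, with a symbol for each CDO1 (red) and mock (grey) replicate. The genes span 702 for EIF3I to 29.2 for EIF3CL in CDO1 cells, a far wider range than the gap between groups in any of them.

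EIF4 factors, which open and load the mRNA, had 3 of 11 genes higher and none lower. EIF4G1 (ENSG00000114867, GRCh38 chromosome 3, 184314495 to 184335358), the main scaffold of EIF4F, had 23925, 25261 and 25076 normalised counts in the CDO1 libraries, against 20969, 21112 and 20570.2 in the mock libraries. Its libraries lay apart, with means of 24754 ± 724 in CDO1 cells and 20884 ± 281 in mock cells (SD, n = 3 each), 18.5% higher, and a log2 fold change of 0.24 ± 0.05 (SE) (limma, adjusted p = 0.000836). EIF4G2, a relative that lacks the EIF4E-binding region, was the most abundant member by count, at 34704, 32836 and 35345 normalised counts in the CDO1 libraries, against 30574, 28857 and 31521 in the mock libraries. It rose by 0.18 ± 0.05 (SE) on the log2 scale (limma, adjusted p = 0.0188), a call lost without CDO1 replicate 1, CDO1 replicate 3 or mock replicate 1. EIF4G3, the third scaffold gene, had a log2 fold change of 0.12 ± 0.05 (SE) (limma, adjusted p = 0.125) and no overlap.

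The helicase gene EIF4A2 had 8390.5, 7874 and 8269 normalised counts in the CDO1 libraries, against 7207, 6872 and 7407 in the mock libraries. It rose by 0.19 ± 0.05 (SE) on the log2 scale (limma, adjusted p = 0.00772), and without CDO1 replicate 1 the adjusted p was 0.0553. EIF4A1, its more widely expressed paralog, had only 98.6, 104 and 73.5 normalised counts in the CDO1 libraries, against 86.9, 89.7 and 80.3 in the mock libraries, with overlapping groups. All 50-base stretches of its principal transcript (100%) occur in transcripts of other genes, 91.7% in the overlapping gene AC016876.2, a processed transcript in GENCODE, alone, which averaged 0.704 normalised counts. The overlapping readthrough gene SENP3-EIF4A1 averaged 6.95. How the authors' counter treated reads of overlapping genes is not given in the sources used here, so the value of EIF4A1 cannot be read as its level, and its log2 fold change of 0.09 ± 0.15 (SE) covers only the reads that were assigned to it.

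The remaining EIF4 genes did not pass. EIF4B, a helicase cofactor, had 12487, 12265 and 12759 normalised counts in the CDO1 libraries, against 13493, 13295 and 14012 in the mock libraries. All lay below mock, with a log2 fold change of -0.12 ± 0.05 (SE) (limma, adjusted p = 0.0776). EIF4B was called lower by edgeR (adjusted p = 0.0466), by DESeq2 (adjusted p = 0.0315) and in the authors' deposited comparison (adjusted p = 0.0339). The cap-binding protein gene EIF4E had 2197, 2215 and 2268 normalised counts in the CDO1 libraries, against 2425, 2294 and 2481 in the mock libraries, also below mock throughout, at -0.11 ± 0.05 (SE) (limma, adjusted p = 0.159). EIF4E2, a cap-binding relative that represses translation, had 1410.1, 1417 and 1471 normalised counts in the CDO1 libraries, against 1261, 1237 and 1356 in the mock libraries, above mock throughout, at 0.16 ± 0.06 (SE) (limma, adjusted p = 0.0544). EIF4E3 stood at 189 ± 5.60 in CDO1 cells and 208 ± 8.34 in mock cells (SD, n = 3 each), while EIF4A3, the helicase of the exon junction complex, and EIF4H, another helicase cofactor, had log2 fold changes of 0.02 and 0.05. EIF4B shares 37.1% and EIF4E2 33.3% of 50-base stretches with other genes, mainly EIF4BP6 and TIGD1.

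Among the EIF4E-binding genes all 3 were called, 2 higher and 1 lower. EIF4EBP1, a repressor released from EIF4E when mTORC1 phosphorylates it, had 2444, 2446 and 2467 normalised counts in the CDO1 libraries, against 2169, 2277 and 1989 in the mock libraries. It was 14.3% higher (log2 fold change 0.20 ± 0.06 (SE), limma adjusted p = 0.0151), and without CDO1 replicate 1, CDO1 replicate 3 or mock replicate 3 the call was lost. EIF4EBP1 has a GC content of 65.5%, the highest of the called genes, and with the GC trend removed its log2 fold change was 0.38 (adjusted p = 1.72e-07) by the robust curve and 0.45 (adjusted p = 1.26e-09) without robustness iterations. EIF4EBP2, its paralog, had 5424, 5569 and 5523 normalised counts in the CDO1 libraries, against 4953, 5219 and 4736 in the mock libraries (log2 fold change 0.15 ± 0.05 (SE), limma adjusted p = 0.0379), and its call was lost without any 1 library except mock replicate 2, with equal totals and with the GC trend removed by the robust curve. Without robustness iterations EIF4EBP2 stood at 0.17 (adjusted p = 0.00552). EIF4ENIF1, which carries EIF4E into the nucleus and to P bodies, had 451, 347 and 427 normalised counts in the CDO1 libraries, against 521, 467 and 476 in the mock libraries. It fell by 0.264 on the log2 scale (limma, adjusted p = 0.04), with CDO1 replicate 2 lowest. DESeq2 did not call EIF4ENIF1 (adjusted p = 0.0775), nor did limma without CDO1 replicate 2, without CDO1 replicate 3 or without mock replicate 1.

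Of the 5 EIF5 genes 3 rose and 1 fell. EIF5, which makes EIF2 hydrolyse its GTP at the start codon, had 7041, 6643 and 7122 normalised counts in the CDO1 libraries, against 6329, 5939.5 and 6437 in the mock libraries (log2 fold change 0.15 ± 0.05 (SE), limma adjusted p = 0.0342). EIF5B, the GTPase of subunit joining, had 5982, 5608 and 5882 normalised counts in the CDO1 libraries, against 5402, 4732 and 5258 in the mock libraries (log2 fold change 0.18 ± 0.06 (SE), limma adjusted p = 0.0186). In both, every CDO1 library was above every mock library. The EIF5 call was lost without CDO1 replicate 1, CDO1 replicate 3, mock replicate 1 or mock replicate 2 and with equal library totals (adjusted p = 0.0826), and that of EIF5B without CDO1 replicate 1, CDO1 replicate 3 or mock replicate 2.

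EIF5A, which carries hypusine and helps ribosomes past difficult peptide bonds, did not pass. EIF5A had 19678, 22120.2 and 19549 normalised counts in the CDO1 libraries, against 18755, 19539.9 and 19249 in the mock libraries, a log2 fold change of 0.09 ± 0.05 (SE) (limma, adjusted p = 0.266), with CDO1 replicate 2 highest. With the GC trend removed EIF5A was called higher, at 0.15 (adjusted p = 0.00385) by the robust curve and at 0.21 (adjusted p = 0.000506) without robustness iterations. EIF5A2, the paralog amplified in some tumours, had 640.0, 613 and 609 normalised counts in the CDO1 libraries, against 701, 686 and 773 in the mock libraries. It was below mock throughout, at a log2 fold change of -0.21 ± 0.07 (SE) (limma, adjusted p = 0.0289), and DESeq2 did not call it (adjusted p = 0.0573); the limma call was lost without any 1 library except mock replicate 2. Per exon length EIF5A2 made up 1.51 ± 0.121% of EIF5A plus EIF5A2 in CDO1 cells and 1.85 ± 0.123% in mock cells (SD, n = 3 each, two-sided exact permutation p = 0.1, the smallest 3 against 3 can give). EIF5AL1, a copy of EIF5A, had 211, 168 and 180.0 normalised counts in the CDO1 libraries, against 149, 133 and 122 in the mock libraries (log2 fold change 0.46 ± 0.12 (SE), limma adjusted p = 0.00686), and without CDO1 replicate 1 its adjusted p was 0.0629. EIF5AL1 shares 17.7% and EIF5A 35.1% of 50-base stretches with other genes, mainly with each other.

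Of the 4 genes named EIF1 or EIF1A, EIF1AD fell and none rose, and the start codon selection factors EIF1 and EIF1AX did not pass. EIF1AD, grouped here only by its symbol and its domain shared with EIF1A, had 568, 536 and 586 normalised counts in the CDO1 libraries, against 703, 617 and 698 in the mock libraries. It fell to 563 in CDO1 cells, against 673 in mock cells, at a log2 fold change of -0.25 ± 0.07 (SE) (limma, adjusted p = 0.0137), and the call was lost without CDO1 replicate 2 or mock replicate 1. EIF1B, the minor paralog of EIF1, had 328, 316 and 315 normalised counts in the CDO1 libraries, against 353, 369 and 387 in the mock libraries, all below mock, at -0.21 ± 0.08 (SE) (limma, adjusted p = 0.0686), and edgeR called it (adjusted p = 0.0485). EIF1, the main fidelity factor, averaged 4992 ± 145 in CDO1 cells and 5195 ± 219.7 in mock cells (SD, n = 3 each), and its groups overlapped. EIF1AX, which with EIF1 holds the scanning ribosome open, had 3807, 3729 and 3831 normalised counts in the CDO1 libraries, against 3514, 3221 and 3707 in the mock libraries, at 0.12 ± 0.06 (SE) (limma, adjusted p = 0.115). Per exon length EIF1B made up 10.8 ± 0.508% of EIF1 plus EIF1B in CDO1 cells and 11.9 ± 0.357% in mock cells (SD, n = 3 each, two-sided exact permutation p = 0.1).

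EIF6 had 2093, 2571 and 2268 normalised counts in the CDO1 libraries, against 2135, 2369 and 2179 in the mock libraries. The groups overlapped, with CDO1 replicate 2 and mock replicate 2 the highest of their groups, and the log2 fold change was 0.05 ± 0.07 (SE) (limma, adjusted p = 0.665). EIF6, with the GC trend removed, stood at 0.12 (adjusted p = 0.0842) by the robust curve and at 0.17 (adjusted p = 0.0104) without robustness iterations, where it was called higher.

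Set beside each other, the complexes had median log2 fold changes of -0.13 for EIF1 and EIF1A genes, 0.08 for EIF2, 0.20 for EIF2B, 0.02 for EIF3, 0.09 for EIF4, 0.15 for the EIF4E-binding genes, 0.15 for EIF5 and 0.05 for EIF6. EIF2B, EIF5 and the EIF4E-binding genes had the highest shares called (60%, 80% and 100%), over only 5, 5 and 3 genes. For EIF2, EIF3 and EIF4 the shares were 20%, 28.6% and 27.3%, below the 36.9% of protein-coding genes with the same minimum mean. Differences between complexes were not tested, since genes are not replicates.

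Other genes of translation were taken from 8 lists, of which 58 of 59 genes were tested, 12 rose and 5 fell, with a median log2 fold change of 0.03. Beside these and the counts per list stand the backgrounds of 11.3% higher and 12.7% lower over all genes tested, and of 18.1% and 18.8% over protein-coding genes averaging 20 or more. With 17 of 58 called, the lists lie between the 24% of all genes and the 36.9% of those protein-coding genes. In mTORC1 and cap-binding control 3 of 15 rose and 2 fell. PDCD4, an inhibitor of EIF4A, had 1492, 1554 and 1555 normalised counts in the CDO1 libraries, against 1107, 1028 and 1192 in the mock libraries. It lay far apart from mock, 38.3% higher (log2 fold change 0.47 ± 0.06 (SE), limma adjusted p = 8.53e-06). RPTOR, the substrate-binding subunit of mTORC1, had 1515, 1616 and 1638 normalised counts in the CDO1 libraries, against 2072, 2103 and 1914 in the mock libraries, all below mock (log2 fold change -0.35 ± 0.06 (SE), limma adjusted p = 0.000105). RPTOR, with the GC trend removed without robustness iterations, stood at -0.20 (adjusted p = 0.00162). MKNK1, a kinase of EIF4E, rose by 0.36 and LARP1, which binds mRNAs with a terminal oligopyrimidine tract, by 0.18 on the log2 scale. MLST8, another subunit of mTORC1, was lower, at a log2 fold change of -0.20 ± 0.06 (SE) (limma, adjusted p = 0.0117), but at -0.04 (adjusted p = 0.593) with the GC trend removed by the robust curve and at 0.03 (adjusted p = 0.688) without robustness iterations. MTOR itself averaged 3061 ± 90.8 in CDO1 cells and 3054 ± 119 in mock cells (SD, n = 3 each).

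Among genes for EIF2 kinases, their phosphatase and stress signalling 1 of 11 rose and 1 fell. EIF2AK2, the kinase activated by double-stranded RNA, had 3854, 3650.0 and 3632 normalised counts in the CDO1 libraries, against 3174, 3060.5 and 3361 in the mock libraries (log2 fold change 0.22 ± 0.05 (SE), limma adjusted p = 0.00475). PPP1CA, a catalytic subunit of protein phosphatase 1, had 2819, 3247 and 2761 normalised counts in the CDO1 libraries, against 3622, 4011 and 3614 in the mock libraries (log2 fold change -0.35 ± 0.06 (SE), limma adjusted p = 0.000275). PPP1CA, with the GC trend removed, stood at -0.24 (adjusted p = 0.000154) by the robust curve and at -0.18 (adjusted p = 0.00399) without robustness iterations. PPP1R15A, the stress-induced subunit that directs the phosphatase to EIF2, had a log2 fold change of 0.10 ± 0.06 (SE) (limma, adjusted p = 0.225), and PPP1CB, another catalytic subunit, of 0.13 ± 0.05 (SE) (limma, adjusted p = 0.0795).

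Of 11 scanning, reinitiation and recycling helpers 4 rose and none fell, against backgrounds of 11.3% of all genes and 18.1% of protein-coding genes averaging 20 or more that were higher. DHX29, a helicase for structured leaders, had 1727, 1763 and 1702 normalised counts in the CDO1 libraries, against 1365, 1377 and 1462 in the mock libraries (log2 fold change 0.30 ± 0.06 (SE), limma adjusted p = 0.000317). METAP2, which removes the initiator methionine, rose by 0.26, BZW2, a mimic of EIF5, by 0.29, and the recycling factor ABCE1 by 0.20 on the log2 scale. In termination 2 of 3 genes rose, GSPT1 by 0.25 and its retrogene GSPT2 by 0.48, which encode release factor 3. Of 8 elongation factors tested 1 fell, EEF1A2, an isoform of the tRNA carrier, with 10800.4, 11634 and 11532 normalised counts in the CDO1 libraries, against 14282, 15683 and 13259.8 in the mock libraries (log2 fold change -0.35 ± 0.06 (SE), limma adjusted p = 0.000154), while EEF1A1 had overlapping groups at 0.09. With the GC trend removed EEF1A2 stood at -0.17 (adjusted p = 0.000574) by the robust curve and at -0.10 (adjusted p = 0.0724) without robustness iterations, where the call was lost. DOHH, the hydroxylase that completes hypusine on EIF5A, had 772, 876 and 797 normalised counts in the CDO1 libraries, against 978, 1180.1 and 913 in the mock libraries (log2 fold change -0.32 ± 0.08 (SE), limma adjusted p = 0.00581), but with the GC trend removed its value was -0.10 (adjusted p = 0.149) by the robust curve and -0.03 (adjusted p = 0.773) without robustness iterations. DHPS, the other hypusine enzyme, had -0.14 ± 0.06 (SE) (limma, adjusted p = 0.106). Of 6 poly(A)-binding proteins and partners 1 rose, the inhibitor PAIP2B, by 0.40, and of the 2 mitochondrial initiation factors MTIF2 rose, by 0.18 on the log2 scale, a call lost with equal library totals (adjusted p = 0.0657).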

How the data were processed

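RNA-seq libraries of KM12 cells, 3 CDO1 and 3 mock, were made from total RNA, per the labels' protocols. STAR 2.5.1b, DESeq2 1.10.1 and GRCh38 are named, per the submitters' processing notes. No source used here names the counter, its strand setting or the annotation. The deposited signal columns are gene counts divided by a size factor per library (0.884 to 1.12). Read values recovered from these steps were whole, to within 0.001, for 100% of entries. The log2 fold change, p-value and adjusted p-value columns are the authors' deposited comparison.

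limma 3.58.1 (trend) on log2 of the value plus 1 was fitted over genes averaging 1 or more, with Benjamini-Hochberg adjustment over all of them. edgeR 4.0.16 (quasi-likelihood) and DESeq2 1.42.0 on the recovered reads were alternatives. edgeR called 5423 genes and DESeq2 4296. The GC trend was a lowess curve with a span of 0.3 and 3 robustness iterations, or none. The 3 iterations were settled on after the version without them had been seen. R was 4.3.3. The fits were tested on simulated data. Names came from a table holding 26577 of the 27134 identifiers, biotypes, exons and GC content from GENCODE release 29 (26742). Shared sequence is the share of distinct 50-base stretches of a gene's principal transcript found on either strand in another gene's transcripts. The read length is not given in the sources used here. Per complex, the up to 4 genes with the smallest p were given in full, and others were added after their values were seen. The members and lists were chosen with earlier results of these data known. The robust fit of the GC trend and the reporting of the earlier fit beside it were chosen after seeing the data. So were the shared-sequence measure, the promoter windows and motifs, and the background of protein-coding genes averaging 20 or more. The design foresaw limma for such values, and the count models ran only as alternatives.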

Additional observations from a re-analysis of the deposited data

How the results depend on the processing

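Over 20 alternative settings per gene, 7 of the 16 genes that rose and none of the 3 that fell were called in every one, and 19 of the 29 that did not pass were called in at least 1. The settings include an adjusted p under 0.01 in the same limma fit, which 9 of the 16 passed. None of the 3 that fell could pass it, since their limma adjusted p was 0.0137 to 0.04. The same counts were not made over all genes, so they do not set factor genes against other genes. The count of factor genes higher, 16 in limma, was 26 with the GC trend removed without robustness iterations, 9 at an adjusted p under 0.01, and 7 to 19 with 1 library left out. The count lower, 3, was 5 with a mean of at least 10, 6 in edgeR with either normalisation, 8 with equal library totals, 10 with the GC trend removed by the robust curve, 7 with the replicate block, 0 at an adjusted p under 0.01, and 0 to 5 with 1 library left out. Of all genes 4394 were higher with the GC trend removed without robustness iterations, against 2467. That version was fitted first, and the robust version took its place as the GC setting only after both had been seen. Of all genes, 1543 were higher at an adjusted p under 0.01, against 2467, and with 1 library left out 1749 to 2607 were higher and 2162 to 2885 lower. With the replicate number as a block 20 factor genes were higher and 7 lower; same-numbered libraries deviated together with correlations of 0.0292, 0.147 and 0.0414, so the numbers were not taken to pair the samples, and each CDO1 library correlated best with the same-numbered mock library except CDO1 replicate 1. Signs turned only in genes that limma over all 6 libraries did not call. Among them EIF3G was called lower with equal library totals, with the replicate block, and without CDO1 replicate 2 or mock replicate 3. EIF6 was called higher with the GC trend removed without robustness iterations. With equal library totals EIF2D stood at -0.0141, EIF3I at -0.0172 and EIF4A3 at -0.00814 on the log2 scale. With the GC trend removed EIF2D stood at -0.021 and EIF4A3 at -0.014, and without robustness iterations EIF3G at 0.0162. With 1 library left out the range was -0.00586 to 0.0347 for EIF3I, -0.0103 to 0.0554 for EIF3L, -0.00735 to 0.24 for EIF4A1, -0.0238 to 0.0643 for EIF4A3 and -0.0304 to 0.118 for EIF6. The share of the reads assigned to EIF4A1, which cannot be read as its level, in EIF4A1 plus EIF4A2 per exon length differed by -0.0796 percentage points between CDO1 and mock cells, and by -0.188 to 0.0553 with 1 library left out, above 0 without CDO1 replicate 3. The cause was not tested. Leaving 3 libraries against 2 also leaves fewer samples for every call.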

Other observations

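EIF4E1B, an EIF4E relative known from oocytes, lay under the minimum mean and was at 0 in all 3 CDO1 libraries, against 6.27, 5.85 and 6.79 normalised counts in the mock libraries. No fold change is given for it. EIF2S3B, a copy of EIF2S3, had 14.8, 15.3 and 16.5 normalised counts in the CDO1 libraries, against 13.4, 12.7 and 14.7 in the mock libraries. Among the EIF4G genes, per exon length, EIF4G1 made up 41.8 ± 1.37% in CDO1 cells and 40.7 ± 1.34% in mock cells, and EIF4G2 55.3 ± 1.33% in CDO1 cells and 56.3 ± 1.37% in mock cells (SD, n = 3 each; two-sided exact permutation p = 0.4 for both), so the shares overlapped although both genes were called higher.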
